A study of Mus musculus with 8 samples.

Results

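The genes described here are the 10 that set the level and partners of the transcription factor Nrf2: the activators Nfe2l2 (which encodes Nrf2) and Nfe2l1, the small Maf genes Mafg, Maff and Mafk, the repressors Bach1 and Bach2, and the Keap1 arm of Keap1, Cul3 and Sqstm1. They are named by their function in the pathway and were placed on build mm10 with a RefSeq table that holds 21631 protein-coding genes on the chromosomes with peaks. Every peak with its summit inside a gene's span or within 50 kb of either end was assigned to that gene. Nrf2 was immunoprecipitated from satellite cells, the resident stem cells of skeletal muscle, taken fresh from the hindlimb of C57BL/6J mice that were either Keap1-null or Nrf2-null. Each genotype has 2 ChIP libraries and 2 inputs, numbered by bench, and a wild-type group is not part of the comparison. The labels do not say how or in which cells the genes were deleted, how old the mice were, or whether the benches used separate animals. Keap1 and Nfe2l2 are themselves the deleted genes, so a missing peak at Keap1 in the Keap1-null list, or at Nfe2l2 in the Nrf2-null list, cannot be told apart from deleted DNA.

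Nrf2 and its relative Nfe2l1 belong to the cap'n'collar (CNC) family of basic leucine zipper proteins. They bind antioxidant response elements as dimers with a small Maf, which has a DNA-binding domain but no activation domain of its own. Bach1 and Bach2 pair with the same small Mafs on the same elements and repress. Keap1 joins Nrf2 to the Cul3 ubiquitin ligase, which marks it for destruction, and the autophagy receptor p62, encoded by Sqstm1, can draw Keap1 away. Nfe2l2, Mafg and Sqstm1 have been described as Nrf2 targets in other cells, which makes them candidates for feedback.

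A site was listed at 1 activator and 1 small Maf, and at none of the repressors or the Keap1 arm. Of the 10 genes, Nfe2l2 and Mafg each had 1 summit from the Keap1-null list, and both summits lay inside the gene. Among all protein-coding genes, 3.7% had a Keap1-null summit in reach by the same rule, so having no site was the usual result for a gene. Both peaks overlapped no Nrf2-null peak by 1 bp or more and are therefore called Keap1-null-only. The same held for 363 of all 469 Keap1-null peaks, so it is not particular to these genes. By that stricter rule the count was again 2 of 10, against 3.31% of protein-coding genes. At Nfe2l2 the missing Nrf2-null peak cannot be told apart from deleted DNA, so the rule can compare the genotypes at Mafg only. Even there it says only that no peak was listed in the Nrf2-null cells, at unknown depth. No gene of the 10 had an Nrf2-null summit in reach, a list in which only 0.693% of protein-coding genes did, so a count of 0 says little. The count of 2 was unchanged when the window was narrowed to 10 kb, where 1.31% of protein-coding genes had a Keap1-null-only summit. At 100 kb it was 3, with Bach2 added, against 5.64%. Differences in gene length matter to such a window: the spans of the 10 genes run from 9.60 to 348 kb with a median of 12.5 kb, against a median of 17.3 kb for protein-coding genes. Their windows together cover 1.55 Mb and hold 1.29 Keap1-null-only summits per Mb, against 0.184 per Mb over the windows of all protein-coding genes. These rates rest on 2 peaks, for genes chosen with earlier results of these data known, and were not tested.

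**Figure D1:**
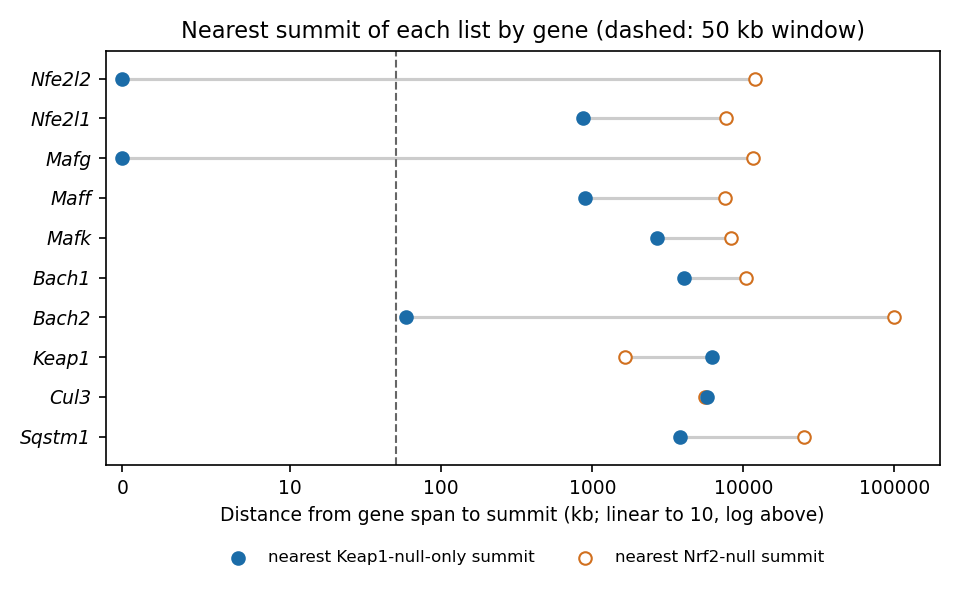
Distance in kb (linear to 10, logarithmic above) from each of the 10 genes to the nearest Keap1-null-only summit (filled) and the nearest Nrf2-null summit (open), with the 50 kb window dashed. Nfe2l2 and Mafg sit at 0 in the Keap1-null-only list, Bach2 lies just outside the window at 58.6 kb, and the nearest Nrf2-null summit to any of the genes is 1654 kb away.

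Nfe2l2 (RefSeq gene 18024, chromosome 2, 75675513 to 75704663, minus strand) carried its peak close behind the point where transcription begins. The peak spans 75703717 to 75704211 on chromosome 2, a width of 495 bp. Its summit lies 696 bp downstream of the only start listed for the gene, and its near edge is 452 bp from that start, so the peak does not reach the start or the promoter in front of it. The strength of a peak is the authors' −log10 p of enrichment in each library. It was 16.2 in the first library and 9.39 in the second, whose bench numbers the files do not name. The first library thus gave the higher value. The irreproducible discovery rate (IDR), which is lower for peaks that rank consistently high in both libraries, was 0.0122. The libraries placed the peak differently: the first called 495 bp and the second 195 bp inside it, with summits 94 bp apart. The median gap between the library summits was 32 bp over the 363 Keap1-null-only peaks, and the upper quartile was 56 bp, so the position at Nfe2l2 is less sharply fixed than at most of these peaks.

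The placement downstream of the start was the less common one. Of 356 Keap1-null-only peaks on chromosomes with listed starts, 38 had a summit within 1000 bp of the start of a protein-coding gene. In 29 of them the summit was upstream of the start and in 9 downstream, and Nfe2l2 was 1 of the 6 that lay 500 bp or more downstream. The closest other protein-coding gene is Hnrnpa3, an RNA-binding protein gene, whose nearer edge is 34.6 kb from the summit. A non-coding RNA gene, E030042O20Rik, lies 2.92 kb from it. Both neighbours were picked out after their positions were seen. The tables used here do not tell exons from introns.

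Mafg (RefSeq gene 17134, chromosome 11, 120625117 to 120634955, minus strand) carried its peak in the body of the gene. The peak spans 120630088 to 120630503 on chromosome 11, a width of 416 bp. Its summit lies 3338 bp downstream of the only listed start. That start, at 120633547, lies inside the gene span, which runs on upstream to 120634955. The summit is 4746 bp from that upstream end of the span and 5092 bp from the other end. The −log10 p was 19.9 in the first library and 10.3 in the second, with an IDR of 0.00801. As at Nfe2l2, the first library was higher. Here the first library called the narrower interval, 232 bp against 416 bp, and the summits were 42 bp apart. Mafg itself has the nearest edge of a protein-coding gene. The nearer edge of the neighbouring Sirt7, which encodes a nuclear deacetylase, is 5195 bp from the summit, nearly as close. Sirt7 was named after its position was seen. Nearness alone does not say which gene a site serves.

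**Figure D2:**
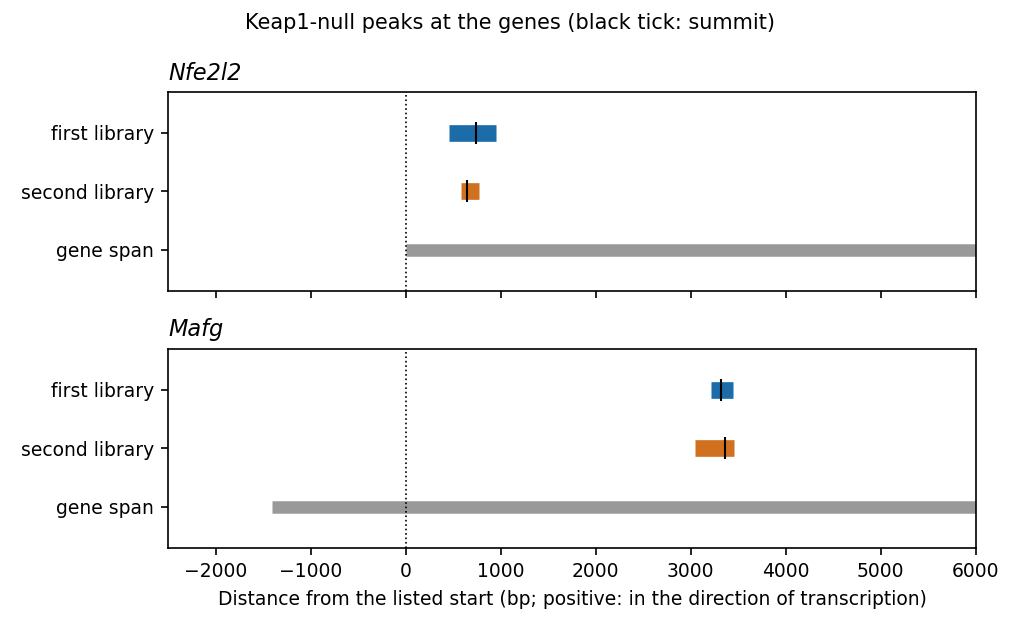
Position of the peak called in the first and the second Keap1-null library at Nfe2l2 and Mafg, in bp from the listed start of the gene, with positive values in the direction of transcription, black ticks at the library summits and the gene span in grey (cut at the right). Both peaks lie downstream of the start, the joined summit at 696 bp in Nfe2l2 and 3338 bp in Mafg.

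Both peaks were near or below the middle of the list, depending on the measure. Ranked by the smaller of the library values, Mafg stood at 200 and Nfe2l2 at 239 among the 363 Keap1-null-only peaks, so 54.8% and 65.6% of these peaks were stronger. The median smaller −log10 p of the 363 peaks was 11, with a range from 6.49 to 83.4, with Mafg at 10.3 and Nfe2l2 at 9.39. In the first library alone the median was 16.9, with Mafg above it and Nfe2l2 below, whereas in the second the median was 11.7 and both were below. The median IDR was 0.00996, so Mafg was in the more reproducible part of the list and Nfe2l2 was not. Their IDR values stand on either side of 0.01. At that limit the Mafg peak is kept and the Nfe2l2 peak is lost, which leaves 1 of the 10 genes with a site, against 1.78% of protein-coding genes. The limit is met by 182 of the 363 peaks, so a loss there is not particular to Nfe2l2. The higher value in the first library is no property of these genes, since it held for 296 of the 363 peaks. The first exceeded the second by 6.86 at Nfe2l2 and 9.52 at Mafg, against a median of 5.75 over the 363 peaks. The depth of each library is unknown, and −log10 p grows with depth.

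**Figure D3:**
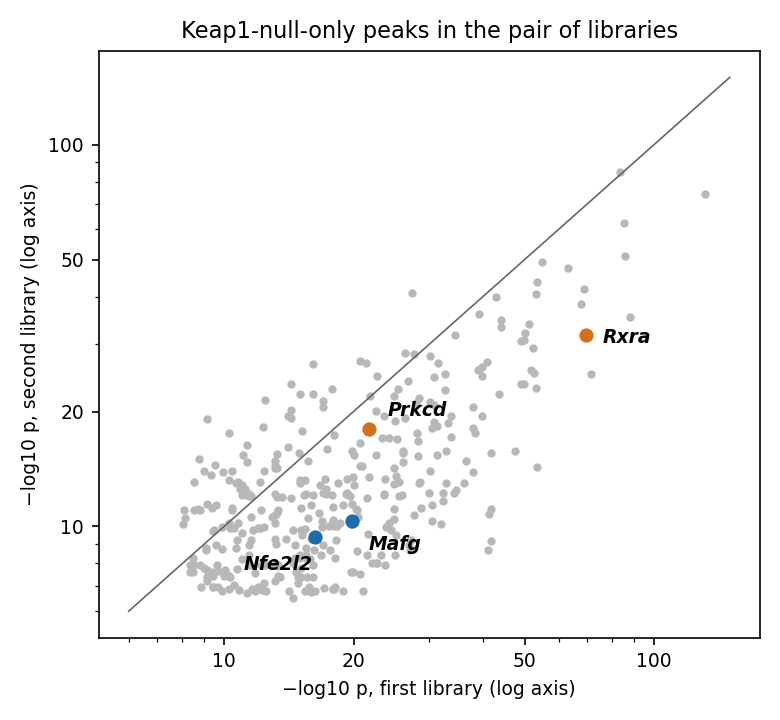
−log10 p in the first against the second Keap1-null library for the 363 Keap1-null-only peaks (log axes, line of equal values). Nfe2l2 and Mafg (blue) lie in the middle to lower part of the cloud and below the line, whereas the peak inside Rxra (orange) is among the strongest and the peak 30.7 kb from Prkcd (orange) lies between.

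The other small Maf genes had no listed site. Maff, on chromosome 15, is a stress-inducible small Maf gene, and its nearest Keap1-null-only summit was 896 kb away. Mafk, on chromosome 5, was 2688 kb from its nearest. Their nearest Nrf2-null summits were 7609 and 8272 kb away, against 11613 kb for Mafg. So within this family of closely related partners only Mafg met the rule. As only 3.31% of protein-coding genes had a Keap1-null-only summit in reach, the lack of one at Maff and Mafk says little. Nfe2l1, which encodes the activator best known for the control of proteasome genes, is also on chromosome 11. Its nearest Keap1-null-only summit was 873 kb from the gene span, a distance that does not depend on its 5 listed starts.

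The repressors had no site within the window, but Bach2 came close to it. Bach2, on chromosome 4, is the longest of the 10 genes, and a Keap1-null-only peak (chromosome 4, 32179352 to 32180040) lay 58.6 kb outside its span. Its −log10 p was 19.7 in the first library and 10.2 in the second, and its IDR was 0.00841, values much like those at Mafg. The summit falls inside the non-coding RNA gene Gm42266 and is 238 kb upstream of the only start listed for Bach2. No protein-coding gene end is nearer to it. Bach1, on chromosome 16, which represses heme oxygenase and other antioxidant genes, had its nearest Keap1-null-only summit 4029 kb away.

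The Keap1 arm had no listed site in either genotype. For Keap1, on chromosome 9, the nearest Keap1-null-only summit was 6193 kb away. The nearest Nrf2-null summit was 1654 kb away and belongs to a region that both lists share. For Cul3, the scaffold of the ligase, on chromosome 1, the distances were 5724 and 5545 kb. For Sqstm1, on chromosome 11, they were 3818 and 25100 kb. Over the 8 genes without a site the median distance to a Keap1-null-only summit was 3253 kb. These are absences from a list of 469 Keap1-null peaks that passed the authors' limit: a weaker site would not be listed, and at unknown depth none of them shows that Nrf2 was not bound.

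Promoter sequence was examined because the antioxidant response element has a known core. RefSeq promoter windows on GRCm38.p6, the assembly of mm10, run from 250 bases before to 50 after each listed start and were found for all 10 genes. The core TGACNNNGC, on either strand, was present in a window of Nfe2l2, Mafg, Maff and Mafk, which is 4 of 10 genes and includes all the small Mafs. It was present in 14.9% of the 17274 protein-coding genes with a window, and in 12.98% of their 21045 windows. The form TGACTCAGC, with the free bases of the core fixed as TCA, was in none of the 10 genes and in 0.480% of all. The looser TGANNNNGC, which contains every TGACNNNGC match, was in 7 of 10 genes and in 45.5% of all. The 4 core matches are shown on the strand of the gene, with the core or its reverse complement in capitals and 10 bases on each side, to let the small Maf promoters be compared with that of Nfe2l2.
Nfe2l2 (chr2:75704885-75704913, first base of the core 240 before the start): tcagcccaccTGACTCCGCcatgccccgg
Maff (chr15:79346499-79346527, 112 before the start): gggcgtctcaTGACTCTGCcactggaaag
Mafg (chr11:120633751-120633779, 222 before the start, reverse complement): ctctgcaggaGCACGGTCAacccggcgag
Mafk (chr5:139791513-139791541, 13 before the start, reverse complement): gatcccggaaGCGGTGTCAgtactgggga

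The data do not place Nrf2 on any of these matches. Maff and Mafk have a core match and no listed peak. The peaks at Nfe2l2 and Mafg lie downstream of the listed starts while their matches lie upstream. The Mafg match, although upstream of the listed start, lies inside the gene span. The letters under the peaks themselves were not analysed here. For Nfe2l2, the gene whose product was immunoprecipitated, the 250 bases before the start are given whole (chr2:75704664-75704913, minus strand, 5′ to 3′ toward the start, core in capitals), since the near edge of the peak lies 452 bp past that start.
Nfe2l2 upstream: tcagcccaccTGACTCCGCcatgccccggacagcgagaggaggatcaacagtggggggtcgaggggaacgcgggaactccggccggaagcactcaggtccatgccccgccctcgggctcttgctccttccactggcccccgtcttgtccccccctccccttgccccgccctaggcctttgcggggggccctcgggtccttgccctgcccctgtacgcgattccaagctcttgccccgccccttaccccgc

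Among 34 other genes of the pathway, 2 had a Keap1-null-only summit in reach, against the 3.31% of protein-coding genes given above. The list holds other CNC and large Maf factors, ligase subunits and adaptors, kinases, coactivators and modulators of Nrf2 or Nfe2l1. None of the 34 had an Nrf2-null summit in reach. Rxra, which encodes a retinoid X receptor able to bind Nrf2 and restrain it, held a peak within the gene (chromosome 2, 27740053 to 27740749). Its −log10 p was 69.4 in the first library and 31.8 in the second, rank 19 of the 363 peaks, well above Nfe2l2 and Mafg. The summit lies 31.1 kb downstream of the nearest listed start of Rxra. Prkcd, which encodes a protein kinase C that can phosphorylate Nrf2, had a summit 30.7 kb from its span, with −log10 p of 21.7 and 18.03. That summit lies inside another gene, Tkt, which encodes the pentose phosphate enzyme transketolase and was named after its position was seen. When each peak was given only to its nearest protein-coding gene, Rxra alone of the 34 was left. The share of all protein-coding genes under that rule is not given.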

How the data were processed

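Nrf2 ChIP-seq was done on satellite cells fixed in 1% formaldehyde for 10 minutes, with 1.5 μg of antibody, per the labels' protocols. The submitters' processing notes name MACS2 2.2.7.1, BWA 0.7.17, Trim Galore 0.6.10 and SAMtools 1.6, with build mm10. Settings, the role of the inputs and any blacklist were not given in the sources used. The authors deposited 1 peak list per genotype (469 Keap1-null and 151 Nrf2-null peaks), in the layout of the IDR procedure, which joins both ChIP libraries. The deposited values are −log10 p per library and −log10 IDR, besides an IDR score that was not used to rank. Fold enrichment and q are filled with placeholders. No read totals are given, so depth is unknown, and the input libraries were not analysed here.

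Summits are the start plus the summit offset of the joined peak, and coordinates are 1-based. Peaks were shared when they overlapped by at least 1 bp. Gene spans, start sites and promoter letters came from RefSeq tables of GRCm38.p6. In 1683 of 1683 overlapping promoter windows of opposite strand the letters matched after reverse complement. For 7 Keap1-null-only peaks no start on their chromosome was used here. Counting was tested on simulated data. The 10 genes and the pathway list were chosen with earlier results of these data known, so counts were not tested. The main counts are set beside the share of all protein-coding genes. Named genes are all 10, pathway genes with a summit in reach, and the protein-coding genes that hold or end nearest to a summit of the 10. Hnrnpa3, Sirt7, Tkt and the non-coding genes E030042O20Rik and Gm42266 fall outside this rule and were named after their positions were seen. Peaks are not replicates. A peak list holds no expression, so the labelled cell type could not be checked against its markers. The planned comparison of small Maf proteins was not run, since no protein sequence was used here. Tools were numpy 2.4.6, pandas 2.3.3 and matplotlib 3.10.9 under Python 3.11.15.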

Additional observations from a re-analysis of the deposited data

How the results depend on the processing

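The alternatives were windows of 5, 10 and 100 kb, the gene span alone, an IDR of at most 0.01, any overlap of the peak with the window, the nearest protein-coding gene alone, and, for shared peaks, an overlap of 50% or a gap of up to 1000 bp. The distance to a listed start, within 50 kb, was added after seeing the data. The 2 genes with a Keap1-null site, or with a Keap1-null-only site, became 1 at the strict IDR, as did the 2 peaks in their windows; the lost peak is the one at Nfe2l2. At 100 kb they became 3, with Bach2. The other settings run for each count gave 2. The Nrf2-null count was 0 under every setting run for it. The rules on shared peaks were run for the Keap1-null-only count of the 10 genes alone. The 2 other pathway genes became 1 with a window of 10 kb, of 5 kb, with the gene span alone and with the nearest gene alone, each time without Prkcd. At 10 kb, 1.31% of protein-coding genes had a Keap1-null-only summit. Such shares are given for the windows of 10, 50 and 100 kb and for the strict IDR. Counts under the other settings have no share beside them and cannot be judged against it. The 4 genes with a core match in the promoter became 0 with TGACTCAGC and 7 with TGANNNNGC, which follows from the letters required. No paired analysis was possible because the deposited lists are already joined over the benches. For the same reason no replicate could be left out. Unknown depth limits what an unlisted site means.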

Other observations

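Where Keap1-null-only peaks did cover promoter windows of protein-coding genes, the core TGACNNNGC was in 10 of 25 windows (40.0%), against 12.98% of all 21045 windows. The form TGACTCAGC was in 2 of the 25, against 0.418% of all windows. None of the 25 windows belongs to the 10 genes described above, windows of 1 gene can overlap, and the difference was not tested.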
